A study of Mus musculus with 6 samples.

Results

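Antisense genes are transcribed from the strand opposite another gene, and divergent genes start near another gene's start site and run the other way. This account covers the antisense and divergent non-coding genes that were expressed in mouse heart, and how they differed between hearts with floxed Ythdc1 and hearts with conditional knockout of Ythdc1. The genes were taken by the biotype given in the deposited table, antisense or bidirectional promoter long non-coding RNA (lncRNA), which 2991 of 54532 listed genes carried. A mean of at least 1 FPKM (fragments normalised to exon length and library depth) over the 6 libraries left 189 genes, leaving out the X and Y chromosomes left 188, and Kcnq1ot1 and Mhrt were set aside by choice. The set held 187 genes, 163 antisense and 24 bidirectional promoter lncRNA genes, on 19 chromosomes.

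Many active promoters fire in both directions, and the upstream, antisense transcript is usually short-lived, because the nuclear exosome degrades RNA that is cut and polyadenylated early. A few antisense transcripts are stable and act on their neighbours, such as Airn, which silences Igf2r on the paternal chromosome in mouse. YTHDC1, the protein made from Ythdc1, is the nuclear reader of N6-methyladenosine (m6A), and it is known to act on splicing, nuclear export and the fate of chromatin-associated RNA.

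Hearts of Ythdc1 flox/flox mice (flox control, 3 libraries) and of Ythdc1-CKO mice (CKO, 3 libraries) were profiled by poly(A)-selected RNA sequencing after 15 days on normal chow. The labels describe the libraries of each group as independent biological replicates and name neither the Cre driver, the deleted part, the age nor the sex; the series text writes HKO where the labels write CKO. Reads assigned to genes numbered 17434296 to 19360428 per library. Strand marking is not described, so where an exon lies across from an exon of the other strand the 2 genes' reads cannot be separated. The same holds for reads of unspliced RNA where an exon lies across from an intron of the other strand. Each value below is uncertain to that extent.

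Ythdc1 itself stood at 4.31, 3.64 and 4.11 FPKM in the control libraries and at 2.39, 2.57 and 2.35 FPKM in the CKO libraries. The groups were apart, CKO lower, with a log2 fold change of -0.54 (SE 0.089, limma adjusted p = 0.0150), the mean of log2(FPKM + 1) in CKO minus that in flox controls, and the exact two-sided permutation test gave 0.1, the smallest p that 3 against 3 libraries allow. Values in brackets with an adjusted p are log2 fold changes on this scale throughout. The limma call was lost without flox control 1, flox control 3 or CKO 3 (adjusted p = 0.0707, 0.0637 and 0.0535). CKO 3 carried 12.4 FPKM of Xist and 0.350 FPKM of the Y-linked gene Ddx3y, whereas the other 5 libraries carried at most 0.0155 FPKM of Xist and at least 10.8 FPKM of Ddx3y. All 8 cardiomyocyte markers were detected, 1 of them called (Tnni3, lower), with summed levels of 16260 to 19770 FPKM in flox controls against 12870 to 16820 FPKM in CKO, while the 3 lung markers summed to at most 0.120 FPKM in any library.

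Markers of several other cell types differed between the groups as well. The 7 fibroblast markers summed to 330 to 448 FPKM in flox controls against 474 to 692 FPKM in CKO, with Tcf21 called higher. The 6 atrial markers, Nppa among them, summed to 157 to 416 FPKM in flox controls against 550 to 2103 FPKM in CKO. Nppa was called higher and Sln lower. Nearly all of the CKO sum was Nppa, at 191, 83.5 and 99.5 FPKM in flox controls against 935, 518 and 2057 FPKM in CKO. Without Nppa, the sum was lower in every CKO library than in any flox control. The atrial light chain gene Myl7 measured 154, 56.7 and 244 FPKM in flox controls against 39.2, 24.1 and 40.7 FPKM in CKO. Neuronal markers (1.62 to 2.003 FPKM against 2.86 to 4.37 FPKM, Tubb3 called higher) and brown fat markers (22.96 to 31.4 FPKM against 37.5 to 85.9 FPKM) also summed higher in every CKO library. Of the 4 neuronal markers 2 were tested, and of the 3 brown fat markers 1 was tested and 0 were called. The skeletal muscle list summed lower (386 to 507 FPKM against 191 to 347 FPKM), but nearly all of that sum was Ckm (385 to 506 FPKM against 191 to 346 FPKM). Of its 5 markers 1 was tested and 0 were called. The summed levels of endothelial (Vwf called higher), pericyte and smooth muscle, macrophage, lymphocyte, erythroid, epicardial and cell cycle markers overlapped between the groups, although macrophage markers stood at 220 FPKM in CKO 1 and at 49.9 to 103 FPKM in the other 5 libraries. The part of these differences in the results was not tested. In bulk tissue, fewer cells of a type and less RNA per cell cannot be told apart.

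Most of the antisense and divergent genes were expressed at low levels. Mean levels ran from 1.001 to 52.4 FPKM with a median of 1.84 FPKM, against a median of 5.71 FPKM over all 12144 genes tested and 6.12 FPKM over 10873 protein-coding genes. A mean under 2 FPKM was found for 104 genes, 29 reached 5 FPKM and 14 reached 10 FPKM. The median gene of the set had 41.2 reads per library, and 1 value, in 1 library, was 0 reads. The coefficient of variation had a median of 19.9% among flox controls and 22.3% among CKO libraries. Just inside the threshold of 1 FPKM stood 1700084E18Rik, Gm15222 and Gm28529, with means of 1.001, 1.01 and 1.03 FPKM, and just outside it Gm11967, Gm42984 and AC174678.1, with 0.982, 0.986 and 0.997 FPKM. In 38 genes 1 group's mean lay under 1 FPKM, so these passed the threshold through the other group.

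The most abundant gene of the set was Ndufb1-ps, annotated as a bidirectional promoter lncRNA that starts beside Cpsf2, a subunit of the cleavage and polyadenylation machinery. It measured 57.4, 70.6 and 53.9 FPKM in flox controls against 44.6, 37.8 and 50.4 FPKM in CKO. All CKO values lay below all control values, but the difference did not pass (log2 fold change -0.44, limma adjusted p = 0.114). Gm49130, which overlaps the end of Myh6, the adult cardiac myosin heavy chain gene, measured 53.9, 41.2 and 52.1 FPKM in flox controls against 44.9, 27.7 and 41.1 FPKM in CKO, with overlapping groups (-0.38, adjusted p = 0.273). Gm29237, inside the spectrin gene Sptbn1, measured 32.7 to 42.6 FPKM in flox controls against 33.3 to 43.0 FPKM in CKO (0.04, adjusted p = 0.907). Gm11716, Gm15543 and Gm45670 came next, with means of 36.0, 34.1 and 30.9 FPKM, and are described with their neighbours.

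Lower expression in CKO was the more frequent difference among these genes. With limma on log2(FPKM + 1), fitted over all genes tested with a Benjamini-Hochberg adjusted p under 0.05, 36 of the 187 genes were called (19.3%), against 11.2% of all genes tested. Of these, 28 were lower in CKO (15.0%, where 5.49% of all genes tested were lower) and 8 were higher (4.28%, where 5.69% were higher). The higher share was therefore close to the background, and the lower share was above it. Protein-coding genes gave 5.27% lower and 5.91% higher. Among all 5553 genes with means of 1 to 5 FPKM, 4.88% were lower and 4.52% higher. Intergenic lncRNA (lincRNA) genes gave a split like that of the set, with 12.4% lower and 2.82% higher of 177, and the differences between classes were not tested. Antisense genes gave 22 lower and 8 higher calls of 163, and bidirectional promoter lncRNA genes 6 lower and 0 higher of 24.

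**Figure D1:**
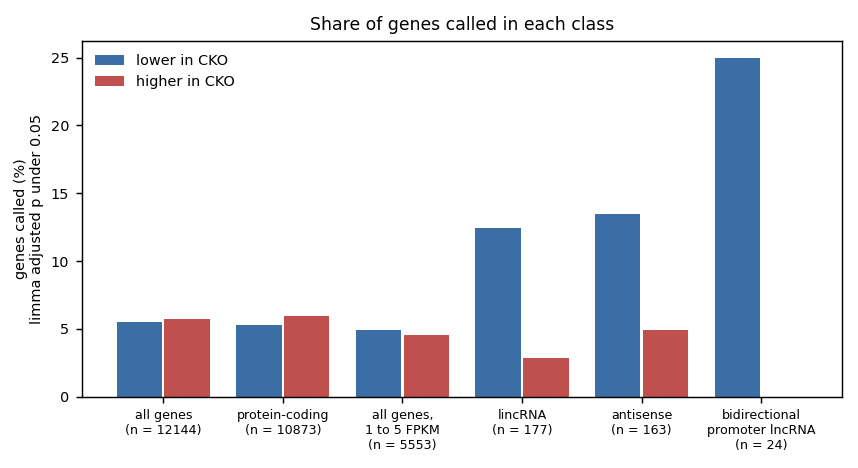
Share of genes called lower (blue) and higher (red) in CKO hearts, in percent of the genes tested in each class, with the number of genes under each name. The bidirectional promoter class has no higher call, and its lower bar stands for 6 of 24 genes.

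Changes over the whole set were small beside those of the called genes. The median log2 fold change was -0.07 over the set (-0.06 for antisense and -0.20 for bidirectional promoter genes), 0.01 over all genes tested and -0.09 over lincRNA genes. The fold change was below 0 in 116 genes (62.0%), against 48.9% of all genes tested. Groups did not overlap in 77 genes (41.2%, background 34.3%), 53 with CKO lower (28.3%, background 17.4%) and 24 with CKO higher (12.8%, background 16.9%). The 28 genes called lower summed to 198, 191 and 191 FPKM in flox controls against 97.5, 88.5 and 85.4 FPKM in CKO, and the 8 called higher to 17.97, 20.1 and 21.1 FPKM in flox controls against 45.5, 55.7 and 58.2 FPKM in CKO. Those sums describe genes picked by their calls. Over all 187 genes the sums were 829, 827 and 816 FPKM in flox controls against 768, 657 and 820 FPKM in CKO 1, 2 and 3, which overlap.

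**Figure D2:**
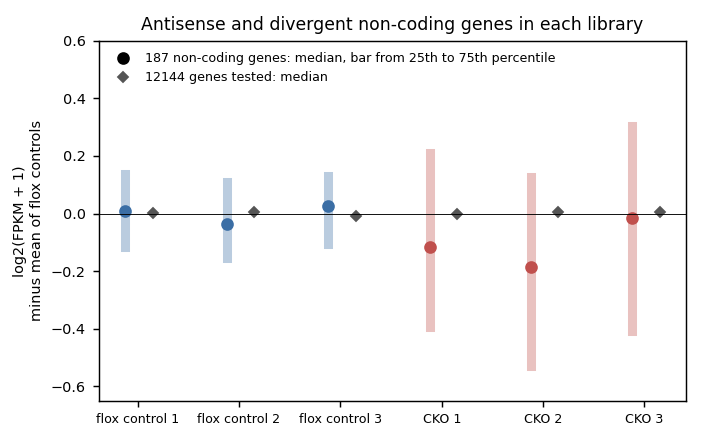
Level of the 187 genes in each library as log2(FPKM + 1) minus the mean of the flox controls; points are medians, bars run from the 25th to the 75th percentile, and diamonds are medians of all 12144 genes tested. CKO 1 and CKO 2 have medians of -0.12 and -0.19, while CKO 3 lies at -0.01, near the controls.

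The number of calls depended on which libraries entered the fit. Without flox control 1, 2 or 3, 10, 17 and 14 genes were lower and 2, 2 and 4 higher. Without CKO 1, 2 or 3, 30, 16 and 12 were lower and 9, 9 and 5 higher. Scaling every library to the same sum of FPKM gave 20 lower and 11 higher calls. Of the 28 lower genes, 9 were called in each of the 6 fits that left out a library (Foxo6os, Gm49490, Gm45012, Gm16793, AC166164.1, B230369F24Rik, D830024N08Rik, 6330403L08Rik and Tug1), and 3 in none of them (Gm48882, Gm48226 and 2410022M11Rik). Of the 8 higher genes, AC165271.1 and 9530034E10Rik were called in each. The other 25 lost the call in at least 1 of these fits (adjusted p up to 0.162), with 24, 18 and 18 calls lost without flox control 1, 2 or 3 and 4, 15 and 19 without CKO 1, 2 or 3. No called gene changed sign in any of these 6 fits. Among the 36 called genes, 15 had a mean under 1 FPKM in the group where they were lower.

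**Figure D3:**
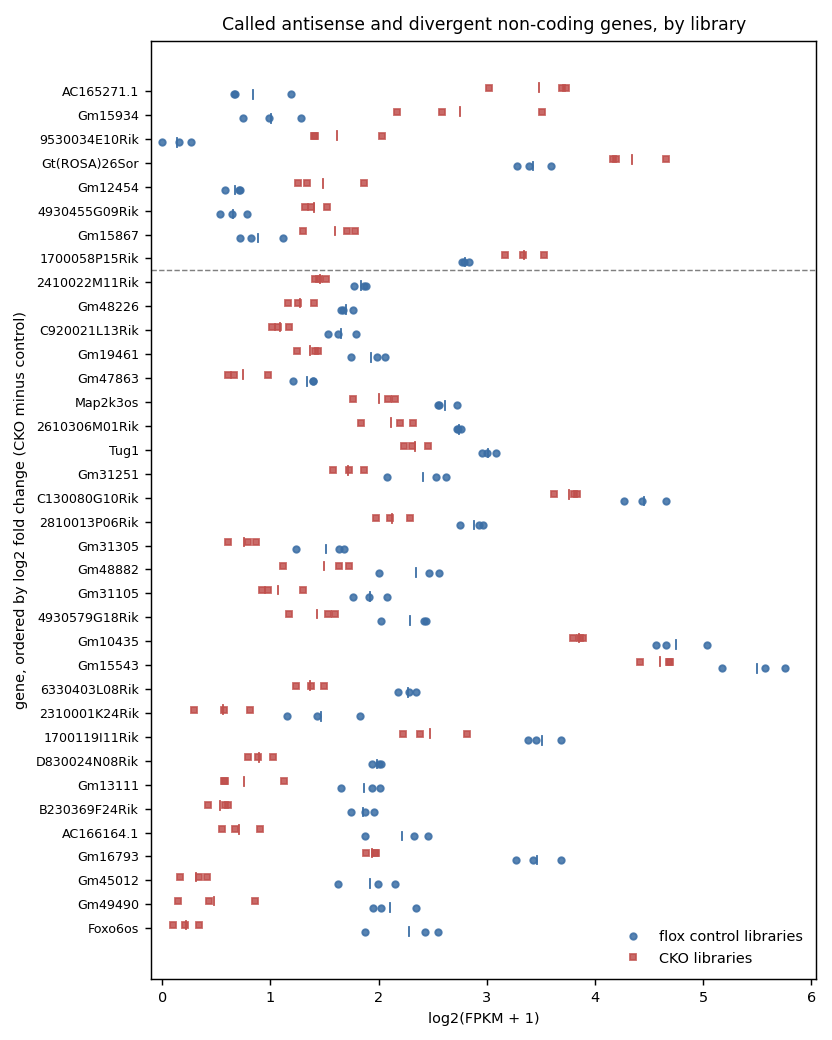
The 36 called genes, ordered by fold change, with log2(FPKM + 1) of each flox control library (blue circles) and CKO library (red squares); short vertical lines are group means and the dashed line parts genes higher in CKO (above) from genes lower in CKO (below). The groups are apart in each of the 36 rows, and the largest mean differences are those of AC165271.1 (up) and Foxo6os (down).

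Genes placed head to head with their protein-coding partner, on opposite strands and running away from each other or overlapping at their start ends, made up the largest part of the lower calls. Of 72 such genes 16 were lower (22.2%, where 5.49% of all genes tested were lower) and 2 higher (2.78%, where 5.69% were higher). Start sites lay within 1000 bases of each other in 51 of them, which gave 12 lower calls (23.5%) and 1 higher, and 1080 to 28353 bases apart in the other 21, which gave 4 lower (19.0%) and 1 higher. Genes lying inside a protein-coding gene on the opposite strand gave 8 lower (11.3%) and 3 higher (4.23%) calls of 71. Genes meeting their partner tail to tail gave 3 lower and 3 higher of 36 (8.33% each), which is close to the shares over all genes tested, as is the higher share of the genes inside a partner. Another 4 genes contained their partner and gave no call, and 4 had a partner on the same strand, with 1 lower call, 2810013P06Rik (5.73 to 6.83 FPKM in flox controls, 2.93 to 3.89 FPKM in CKO). Its assigned partner, Gm20388, is a long annotated gene that spans it, starts 3131625 bases away and had 0 reads in every library. The difference between these arrangements was not tested.

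Foxo6os showed the largest decrease. It is an antisense gene (chr4:120291350-120303892, plus strand, GRCm38) whose start lies 4001 bases from that of Foxo6, a forkhead transcription factor gene on the other strand, with no exon base in any other gene's exons. Foxo6os stood at 2.66, 4.40 and 4.86 FPKM in flox controls 1, 2 and 3 (103, 177 and 222 reads) against 0.268, 0.157 and 0.0723 FPKM in CKO 1, 2 and 3 (11, 7 and 3 reads). The lowest control stood far above the highest CKO library, and the control mean was 23.99 times the CKO mean (log2 fold change -2.07, SE 0.19, limma adjusted p = 0.00454).

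The gene with the smallest adjusted p, Gm16793, is a bidirectional promoter lncRNA gene (chr8:35582503-35588972, minus strand) that overlaps the start of Mfhas1, a gene for a leucine-rich repeat protein, with 8.04% of its exon bases in Mfhas1 exons. It measured 11.9, 9.76 and 8.63 FPKM in flox controls against 2.92, 2.69 and 2.92 FPKM in CKO. The CKO libraries were nearly alike and the control mean was 3.55 times theirs (-1.52, SE 0.12, limma adjusted p = 0.00350). B230369F24Rik starts 581 bases from Cox20, which encodes an assembly factor of cytochrome c oxidase, and the 2 genes share no exon base. It measured 2.66, 2.36 and 2.88 FPKM in flox controls against 0.522, 0.341 and 0.496 FPKM in CKO, again with groups far apart (-1.32, SE 0.11, adjusted p = 0.00413).

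Among the other head-to-head genes, Gm49490 starts 307 bases inside C1qtnf6, a gene for a secreted protein of the C1q and TNF-related family, and 24.6% of its exon bases lie in that gene's exons. Gm49490 measured 2.86, 4.08 and 3.06 FPKM in flox controls against 0.352, 0.108 and 0.813 FPKM in CKO (-1.62, limma adjusted p = 0.00816), from 1 to 7 reads per CKO library. Gm13111, which starts 703 bases from Prdm16, a transcriptional regulator of muscle and fat, measured 2.14 to 3.04 FPKM in flox controls against 1.18, 0.493 and 0.483 FPKM in CKO (-1.11, adjusted p = 0.0175). Its highest CKO value belonged to CKO 1, and the call was lost without flox control 1, flox control 3, CKO 2 or CKO 3 (adjusted p up to 0.0764). 6330403L08Rik, which starts 2314 bases from the growth factor gene Pdgfa, measured 4.08, 3.54 and 3.87 FPKM in flox controls against 1.82, 1.35 and 1.60 FPKM in CKO (-0.90, adjusted p = 0.00662).

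Tug1, a lncRNA gene needed for male fertility in mouse, starts 179 bases inside Morc2a, a gene for a chromatin-bound ATPase (Tug1 spans chr11:3639785-3649673, minus strand). It measured 7.0, 6.77 and 7.51 FPKM in flox controls against 3.97, 4.48 and 3.72 FPKM in CKO, from 656 to 1457 reads per library. The groups were apart by more than the range within either, and the control mean was 1.75 times the CKO mean (-0.68, SE 0.089, limma adjusted p = 0.00909). The call did not hold when libraries were scaled to the same sum (adjusted p = 0.0577). Map2k3os, which starts 166 bases from the kinase gene Map2k3, measured 4.86, 4.90 and 5.59 FPKM in flox controls against 3.45, 2.39 and 3.25 FPKM in CKO (-0.61, SE 0.12, adjusted p = 0.0295). It was called in only 1 of the 6 fits that left out a library (adjusted p up to 0.0993).

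C130080G10Rik starts 787 bases from Actc1, the cardiac actin gene, and 38.7% of its exon bases lie in exons of another gene. It measured 24.2, 18.2 and 20.7 FPKM in flox controls against 13.0, 13.3 and 11.3 FPKM in CKO, with the groups apart (-0.70, limma adjusted p = 0.0203), though it did not pass without flox control 1, flox control 3 or CKO 3 (adjusted p up to 0.0700). Further lower head-to-head genes were 2310001K24Rik beside Fitm2, Gm31105 beside the adaptor gene Gab1, Gm48882 head to head with Cradd, 2610306M01Rik beside the kinase gene Aak1, Gm47863 beside Jdp2, Gm48226 beside the gephyrin gene Gphn and 2410022M11Rik beside Zmym5. Their log2 fold changes ran from -0.91 to -0.38, and the 2 smallest were those of Gm48226 (-0.42) and 2410022M11Rik (-0.38).

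The sequence around the start sites of the lower genes is shown for 5 of them, the 3 with established symbols and the genes beside Fitm2 and Actc1, to set CpG-poor beside CpG-rich starts. The windows are from RefSeq (GRCm38.p6), run 5′ to 3′ on the gene's own strand from 250 bases before to 50 after the RefSeq start, and have CG dinucleotides in capitals.
Foxo6os (chr4:120290883-120291182, plus strand): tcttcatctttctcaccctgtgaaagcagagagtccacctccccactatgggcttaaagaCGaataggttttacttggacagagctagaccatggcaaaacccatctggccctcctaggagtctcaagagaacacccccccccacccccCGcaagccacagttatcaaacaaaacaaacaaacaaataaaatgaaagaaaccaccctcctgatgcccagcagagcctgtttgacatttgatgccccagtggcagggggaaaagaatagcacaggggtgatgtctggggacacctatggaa
C130080G10Rik (chr2:114054146-114054445, plus strand): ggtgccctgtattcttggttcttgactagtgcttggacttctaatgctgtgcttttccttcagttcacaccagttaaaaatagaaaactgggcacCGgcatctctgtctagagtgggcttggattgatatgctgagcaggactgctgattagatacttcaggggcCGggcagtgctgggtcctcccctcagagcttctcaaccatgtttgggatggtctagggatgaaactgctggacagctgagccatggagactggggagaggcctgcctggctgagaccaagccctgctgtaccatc
Map2k3os (chr11:60931818-60932117, minus strand): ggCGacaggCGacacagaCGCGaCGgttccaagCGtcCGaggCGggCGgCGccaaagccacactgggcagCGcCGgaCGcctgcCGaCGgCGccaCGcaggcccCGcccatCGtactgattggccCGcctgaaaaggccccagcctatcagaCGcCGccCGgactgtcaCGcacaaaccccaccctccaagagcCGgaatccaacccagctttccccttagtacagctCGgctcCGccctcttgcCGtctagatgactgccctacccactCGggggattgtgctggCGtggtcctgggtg
Tug1 (chr11:3648765-3649064, minus strand): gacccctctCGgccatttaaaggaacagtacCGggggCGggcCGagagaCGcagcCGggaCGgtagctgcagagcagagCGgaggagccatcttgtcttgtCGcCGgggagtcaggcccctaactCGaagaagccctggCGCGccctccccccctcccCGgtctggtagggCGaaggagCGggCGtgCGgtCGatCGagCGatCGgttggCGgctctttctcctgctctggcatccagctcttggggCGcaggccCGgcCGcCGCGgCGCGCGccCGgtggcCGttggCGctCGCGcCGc
2310001K24Rik (chr2:163472295-163472594, plus strand): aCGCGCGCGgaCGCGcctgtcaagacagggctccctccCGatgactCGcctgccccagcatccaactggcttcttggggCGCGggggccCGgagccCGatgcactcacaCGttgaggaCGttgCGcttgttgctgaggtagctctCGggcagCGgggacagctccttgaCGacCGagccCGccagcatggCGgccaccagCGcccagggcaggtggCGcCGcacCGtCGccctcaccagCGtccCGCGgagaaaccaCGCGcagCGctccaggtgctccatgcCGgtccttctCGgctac
Foxo6os and C130080G10Rik hold 2 CpG each, and Map2k3os, Tug1 and 2310001K24Rik hold 30, 37 and 34. The RefSeq start differs from that of the annotation used here by 859 bases for Tug1, 588 bases for 2310001K24Rik, 217 bases for Foxo6os and 61 bases for C130080G10Rik, and the windows of Tug1, 2310001K24Rik and Foxo6os do not hold the annotated start.

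Promoter windows were found for 84 of the 187 genes. Their median ratio of observed to expected CpG was 0.614, between that of all 32851 windows (0.384) and that of the protein-coding genes tested (0.760). The 13 lower genes with a window had a median of 0.322 and the 69 uncalled genes 0.632. GGGCGG, the core of the GC box, was present on either strand in 48.8% of the windows, against 35.7% of all windows and 63.8% of those of protein-coding genes. TATAAA was present in 4.76% and CCAAT in 31.0%, against 13.6% and 37.4% of all windows. Matches are letters in a window and no evidence of binding.

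The 5-letter form GGACT of the m6A consensus was counted on the sense strand of the longest annotated transcript of each gene. The 187 genes held 1.10 matches per kilobase, close to the 1.08 of protein-coding genes and the 1.01 of lincRNA genes. Lower genes held 1.02, higher genes 1.72 and uncalled genes 1.10 per kilobase; the 8 higher genes had short transcripts, with a median of 578 bases. Tug1 held 9 matches in 6719 bases. m6A itself was not measured here.

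Lower genes also lay inside or at the end of protein-coding genes. Gm15543 lies inside Casc1, with 100% of its exon bases in Casc1 introns and none in another gene's exons. It measured 46.5, 53.1 and 35.02 FPKM in flox controls against 24.9, 24.8 and 20.3 FPKM in CKO (-0.90, SE 0.17, limma adjusted p = 0.0240). Casc1, too low to be tested, measured 0.528, 0.434 and 0.600 FPKM in flox controls against 0.128, 0.198 and 0.0678 FPKM in CKO, lower in every CKO library. Gm45012, at the end of the acyltransferase gene Mogat2, measured 3.44, 2.08 and 2.98 FPKM in flox controls against 0.268, 0.123 and 0.331 FPKM in CKO (-1.62, adjusted p = 0.00557). Without flox control 1, flox control 2, CKO 2 or CKO 3 Gm15543 did not pass (adjusted p up to 0.0947). Groups were apart in both, and the control mean of Gm45012 was 11.8 times the CKO mean.

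At the end of Apobec2, a muscle gene of the cytidine deaminase family, AC166164.1 measured 4.02, 2.66 and 4.47 FPKM in flox controls against 0.592, 0.873 and 0.469 FPKM in CKO (-1.51, limma adjusted p = 0.00702). None of its exon bases lie in another gene's exons, but 83.4% of them lie in Apobec2 introns. Apobec2 had a log2 fold change of 0.36 (adjusted p = 0.125). Gm31251 lies inside Myh7, the slow cardiac myosin heavy chain gene, with 41.9% of its exon bases in Myh7 exons. It measured 4.79, 5.16 and 3.22 FPKM in flox controls against 2.63, 1.98 and 2.30 FPKM in CKO (-0.69, adjusted p = 0.0427), while Myh7 measured 21.1 to 23.7 FPKM in flox controls against 257, 35.8 and 91.3 FPKM in CKO (2.06, adjusted p = 0.0871). The Gm31251 call was lost without flox control 1, flox control 2, CKO 2 or CKO 3 (adjusted p up to 0.145). Further lower genes of this kind were 4930579G18Rik inside Acin1, Gm31305 inside Pde4dip and C920021L13Rik at the end of BC028528, with log2 fold changes of -0.86, -0.76 and -0.56 (limma adjusted p = 0.0249, 0.0304 and 0.0269).

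Of the 8 higher genes, AC165271.1 had the largest log2 fold change, which was also the largest of the set in either direction on the log2(FPKM + 1) scale. By the ratio of mean FPKM, Foxo6os and 9530034E10Rik differed more, the latter from very few control reads. AC165271.1 is an antisense gene (chr16:94721894-94753438, plus strand) that overlaps the end of Kcnj6, which encodes a G protein-gated potassium channel subunit. Of its exon bases, 31.7% lie in Kcnj6 exons. AC165271.1 measured 0.592, 1.28 and 0.585 FPKM in flox controls (12, 27 and 14 reads) against 7.11, 11.99 and 12.3 FPKM in CKO (153, 280 and 268 reads). The lowest CKO library was well above the highest control, and the CKO mean was 12.8 times the control mean (log2 fold change 2.64, SE 0.24, limma adjusted p = 0.00414). Kcnj6, too low to be tested, had 3, 1 and 0 reads in flox controls against 20, 24 and 22 reads in CKO (at most 0.162 FPKM). The reads assigned to it were thus higher in every CKO library too. In the shared exon bases they cannot be separated from those of AC165271.1.

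9530034E10Rik, inside the sialyltransferase gene St3gal3, went from 0, 1 and 2 reads in flox controls to 15, 16 and 28 reads in CKO (1.67, 1.64 and 3.08 FPKM). It was called (1.48, SE 0.20, limma adjusted p = 0.00985), but not at a pseudocount of 0.01 (adjusted p = 0.0591), and with so few control reads the size of its change is poorly fixed. Gt(ROSA)26Sor, the Rosa26 locus that is widely used for inserting transgenes, measured 8.72, 9.51 and 11.1 FPKM in flox controls against 17.3, 24.3 and 16.9 FPKM in CKO. CKO values were all above control values, with a mean 2.0 times as high (0.92, SE 0.16, adjusted p = 0.0186), and the call was lost without flox control 1 or 2 (adjusted p up to 0.0796). Thumpd3, whose end it overlaps, had a log2 fold change of 0.07 (adjusted p = 0.684). The labels do not say whether a transgene was inserted at this locus.

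The other higher genes were Gm15934 and Gm12454, whose partners rose too, 4930455G09Rik near Tmem51, Gm15867 beside Sertad4 and 1700058P15Rik inside Vasp. 1700058P15Rik measured 5.83 to 6.16 FPKM in flox controls against 7.96 to 10.5 FPKM in CKO, the smallest change among the higher genes (0.54, limma adjusted p = 0.0274). 4930455G09Rik and Gm15867 rested on 5 to 9 reads per control library and 11 to 23 per CKO library. Their log2 fold changes were 0.75 and 0.71 (limma adjusted p = 0.0160 and 0.0489).

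Each gene was set beside its protein-coding partner, the gene it overlaps most or, for 25 genes, the nearest one, 15 to 18100 bases away. The partner passed the filter in 161 cases, and the median non-coding gene stood at 0.221 of its partner's FPKM (quartiles 0.0856 and 0.554), with 20 above it. Partners were called in 24 cases, 13 higher and 11 lower (14.9%, against 11.2% of protein-coding genes). Both genes of a pair were called in the same direction in 7 pairs (4.35%) and in opposite directions in 2 (1.24%). Among 4652 pairs of neighbouring protein-coding genes these shares were 1.01% and 0.387%. Single genes were also called more often in the set (19.3%) and among partners than among protein-coding genes, which by itself raises both shares. Whether the shares exceed what those rates give was not tested. Of the 32 called genes with a tested partner, 23 had a partner that was not called, and 15 partners were called beside an uncalled non-coding gene.

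**Figure D4:**
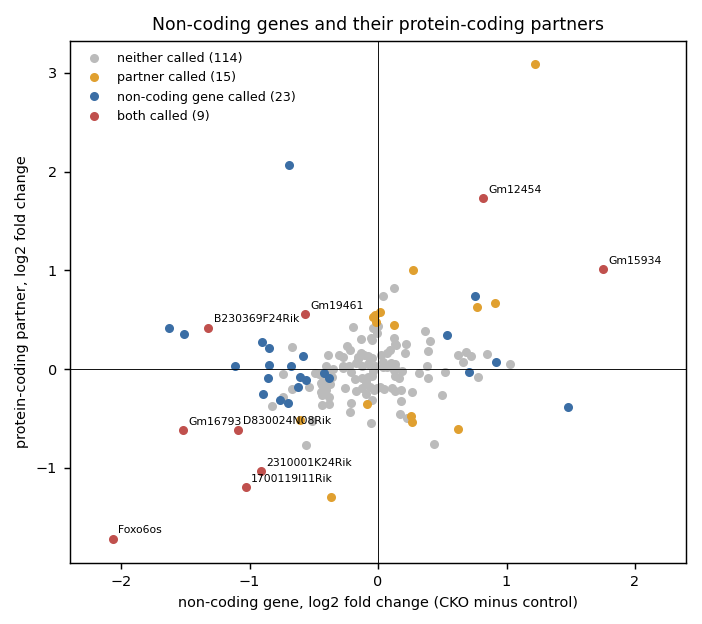
Log2 fold change (CKO minus flox control) of each non-coding gene (horizontal) and of its protein-coding partner (vertical) for 161 pairs, coloured by which gene was called; the 9 pairs with both called are named. Of these 9, 5 lie at lower left and 2 at upper right, and B230369F24Rik and Gm19461 lie at upper left.

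Signs matched in 95 of the 161 pairs (59.0%, against 53.5% of neighbouring protein-coding pairs). Across pairs, fold changes had a Pearson r of 0.357 and a Spearman rho of 0.272, and r was 0.303 without Foxo6os. Head-to-head pairs gave r = 0.467 (71 pairs), tail-to-tail pairs 0.452 (29 pairs), pairs with the non-coding gene inside its partner 0.180 (58 pairs) and neighbouring protein-coding genes 0.124. These are descriptions across pairs that come from the same 6 libraries, and overlapping pairs may share reads. A median of 3.93% of a gene's exon bases lay in its partner's exons, and the highest share was 64.9%. Among the 69 genes with no exon base in any other gene's exons, 10 were lower and 3 higher, and among the other 118, 18 were lower and 5 higher. Genes of the first kind may still lie in introns of another gene.

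In 5 pairs both genes fell. Foxo6 measured 1.81, 2.48 and 5.51 FPKM in flox controls against 0.171, 0.354 and 0.127 FPKM in CKO (-1.72, SE 0.30, limma adjusted p = 0.0193), and Foxo6os, described above, also fell. Mfhas1 measured 10.7, 9.29 and 9.27 FPKM in flox controls against 6.61, 6.07 and 5.36 FPKM in CKO (-0.62, SE 0.10, adjusted p = 0.0159). The log2 ratio of Gm16793 to Mfhas1, on FPKM + 1, was lower by 0.90 in CKO with groups apart, while that of Foxo6os to Foxo6 differed by -0.35 with overlapping groups (exact permutation p = 0.1 and 0.3). D830024N08Rik, inside the enoyl-CoA reductase gene Tecr but sharing none of its exon bases, measured 2.84, 3.06 and 3.01 FPKM in flox controls against 0.846, 0.727 and 1.03 FPKM in CKO (-1.09, SE 0.10, adjusted p = 0.00454). Tecr went from 62.8 to 69.2 FPKM to 40.7 to 46.3 FPKM (-0.61, adjusted p = 0.0154).

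The other 2 lower pairs hold genes of cardiac energy and lipid handling. 1700119I11Rik, with 20.7% of its exon bases in exons of Ckmt2, the sarcomeric mitochondrial creatine kinase gene, measured 9.93, 9.42 and 11.9 FPKM in flox controls against 6.05, 3.68 and 4.22 FPKM in CKO (-1.03, limma adjusted p = 0.0155). Ckmt2 measured 1105, 1138 and 803 FPKM in flox controls against 405, 379 and 546 FPKM in CKO (-1.20, adjusted p = 0.0210). 2310001K24Rik, with 30.7% of its exon bases in exons of Fitm2, a gene for lipid droplet formation, measured 2.56, 1.69 and 1.22 FPKM in flox controls against 0.753, 0.486 and 0.224 FPKM in CKO (-0.91, adjusted p = 0.0438). Fitm2 measured 46.3 to 58.6 FPKM in flox controls against 21.7 to 28.1 FPKM in CKO (-1.03, adjusted p = 0.00909). In both pairs the partner was far more abundant, and in the shared exon bases the 2 genes' reads cannot be separated. The log2 ratios within these pairs differed by 0.17 and 0.12 with overlapping groups (exact permutation p = 0.6 and 0.5), and at a pseudocount of 0.1 the second turned to -0.70. The call of 1700119I11Rik was lost without flox control 1, flox control 3 or CKO 3 (adjusted p up to 0.0609), and that of 2310001K24Rik when any 1 library except CKO 1 was left out (adjusted p up to 0.131).

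In 2 pairs both genes rose. Gm15934, inside Popdc3, a gene of the membrane-bound Popeye family of striated muscle, measured 0.676, 0.976 and 1.43 FPKM in flox controls against 3.50, 4.99 and 10.4 FPKM in CKO (1.75, SE 0.34, limma adjusted p = 0.0251). Popdc3 measured 7.18 to 10.7 FPKM in flox controls against 15.3 to 22.1 FPKM in CKO (1.01, adjusted p = 0.0210). Gm12454, head to head with Car9, the hypoxia-inducible carbonic anhydrase gene, measured 0.492, 0.631 and 0.649 FPKM in flox controls against 1.39, 1.52 and 2.65 FPKM in CKO (0.82, SE 0.18, adjusted p = 0.0366). Car9 went from 0.154, 0.395 and 0.414 FPKM to 2.56, 4.59 and 3.16 FPKM (1.73, SE 0.19, adjusted p = 0.00607). Of the exon bases of Gm15934 and Gm12454, 22.9% and 19.8% lay in their partners' exons. Gm15934 lost its call when any 1 flox control or CKO 2 was left out (adjusted p up to 0.0962), and Gm12454 when any 1 library except CKO 1 was left out (adjusted p up to 0.126).

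Opposite calls were made in 2 pairs. Cox20 measured 1.14, 1.23 and 1.36 FPKM in flox controls against 2.08, 2.04 and 1.88 FPKM in CKO (0.42, SE 0.097, limma adjusted p = 0.0414), while B230369F24Rik on the other side of their start sites fell. The Cox20 values rested on 17, 19 and 24 reads in flox controls and 33, 35 and 30 reads in CKO. The log2 ratio of B230369F24Rik to Cox20 was lower by 1.74 in CKO, with groups apart (exact permutation p = 0.1). Gm19461, inside Plekha6, measured 3.16, 2.36 and 2.97 FPKM in flox controls against 1.71, 1.66 and 1.37 FPKM in CKO (-0.57, adjusted p = 0.0307), and Plekha6 8.89 to 11.6 FPKM in flox controls against 13.99 to 17.9 FPKM in CKO (0.56, adjusted p = 0.0481). Gm19461 did not pass without flox control 1, flox control 3, CKO 2 or CKO 3 (adjusted p up to 0.117). The log2 ratio of Gm19461 to Plekha6 was lower by 1.12 with groups apart (exact permutation p = 0.1).

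Several lower genes stood beside partners that did not pass. Morc2a, beside Tug1, measured 6.33 to 7.08 FPKM in flox controls against 6.59 to 7.50 FPKM in CKO (0.03, limma adjusted p = 0.857), and the log2 ratio of Tug1 to Morc2a was lower by 0.71 with groups apart. Map2k3 had a log2 fold change of -0.08 (adjusted p = 0.701), Prdm16 0.03 (0.884), Gab1 0.04 (0.849) and Gphn -0.04 (0.822), the values in brackets being adjusted p. C1qtnf6 and Pdgfa had positive values, 0.42 (adjusted p = 0.235) and 0.27 (adjusted p = 0.196), beside the decreases of Gm49490 and 6330403L08Rik.

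The reverse case, a called partner beside an uncalled gene, included the natriuretic peptide gene Nppa, a marker of cardiac stress. Nppa measured 191, 83.5 and 99.5 FPKM in flox controls against 935, 518 and 2057 FPKM in CKO (3.09, SE 0.54, limma adjusted p = 0.0185). Gm13054, which meets Nppa tail to tail and has 64.9% of its exon bases in Nppa exons, measured 0.793, 0.417 and 0.122 FPKM in flox controls against 3.06, 1.003 and 3.43 FPKM in CKO (1.22, SE 0.33, adjusted p = 0.0639). In the CKO libraries both genes were highest in CKO 3 and lowest in CKO 2, and the level of Gm13054 was 0.00227 of that of Nppa. E230013L22Rik, head to head with the small GTPase gene Rab20, measured 5.24 to 7.52 FPKM in flox controls against 8.20 to 18.2 FPKM in CKO (0.91, adjusted p = 0.0761), and Rab20 was called higher (0.67, adjusted p = 0.0347).

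Pitpnc1, a phosphatidylinositol transfer protein gene, was lower, from 12.6 to 13.99 FPKM in flox controls to 7.63 to 9.49 FPKM in CKO (-0.61, limma adjusted p = 0.0162). Gm11716, which lies inside it with no shared exon base, measured 22.8, 31.3 and 29.6 FPKM in flox controls against 58.5, 34.9 and 39.3 FPKM in CKO (0.63, SE 0.22, adjusted p = 0.115). Every CKO library lay above every control, and the highest was CKO 1. Sorbs2os measured 0.693 to 1.11 FPKM in flox controls against 0.879 to 1.81 FPKM in CKO (0.27, adjusted p = 0.380), inside Sorbs2, an adaptor gene of the sarcomere that was called higher (1.0, adjusted p = 0.0243). Other called partners of uncalled genes were Yap1 (a transcriptional coactivator), Cul5 (a ubiquitin ligase scaffold), Cfl2 (muscle cofilin) and Trdn (triadin), with log2 fold changes of 0.47, -0.36, 0.55 and -0.53 (adjusted p = 0.0419, 0.0293, 0.0401 and 0.0491).

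Of 24 genes with established symbols, 1 was higher (Gt(ROSA)26Sor) and 3 lower (Foxo6os, Map2k3os and Tug1), and 20 did not pass. Airn measured 2.55, 2.31 and 2.50 FPKM in flox controls against 2.01, 2.19 and 1.87 FPKM in CKO, and Igf2r, which it silences, 21.1, 19.4 and 19.4 FPKM in flox controls against 28.5, 30.2 and 23.4 FPKM in CKO. The groups were apart in both, in opposite directions, and neither passed (-0.19 with limma adjusted p = 0.222, and 0.43 with adjusted p = 0.0645). Dnm3os, a host of microRNA genes inside Dnm3, measured 0.821 to 0.974 FPKM in flox controls against 1.13 to 2.003 FPKM in CKO (0.45, adjusted p = 0.109). Mir133a-1hg, a host of muscle microRNA genes, measured 5.21 to 7.49 FPKM in flox controls against 12.3, 6.77 and 14.8 FPKM in CKO (0.66, adjusted p = 0.167), and CKO 2 lay within the controls.

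Atcayos, which meets the end of Atcay, measured 21.2, 36.2 and 24.9 FPKM in flox controls against 19.9, 7.88 and 23.9 FPKM in CKO (-0.74, limma adjusted p = 0.286). Gm45670, inside the helicase gene Dhx32, measured 22.6, 23.1 and 12.5 FPKM in flox controls against 31.4, 28.6 and 66.8 FPKM in CKO (1.03, SE 0.37, adjusted p = 0.128), highest in CKO 3. The remaining established genes had log2 fold changes from -0.44 to 0.63 without passing, among them Phf2os1 (-0.44), Rab10os (-0.37), Sox6os (-0.29), Prox1os (-0.08), Brip1os (0.27) and Zfp335os (0.63).

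Genes for the nuclear machinery that degrades divergent and antisense RNA were measured alongside. The list held subunits of the exosome, its NEXT and PAXT adaptors, the cap-binding complex, Xrn2 and Integrator, of which 27 were in the table, 26 were tested and 0 were called by limma, where 11.2% of all genes tested were called. At an unadjusted p under 0.05 stood Exosc10, a ribonuclease of the nuclear exosome (15.1 to 16.9 FPKM in flox controls, 13.2 to 13.5 FPKM in CKO, log2 fold change -0.24, adjusted p = 0.105), Ncbp2, the small cap-binding subunit (-0.33, adjusted p = 0.143), and Ints11, the Integrator endonuclease (-0.17, adjusted p = 0.171). The voom fit on recovered reads also called 0.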

How the data were processed

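Heart RNA of 3 flox control and 3 CKO mice was analysed from the FPKM values that the authors deposited for 54532 genes. The submitters' processing notes name the build GRCm38.p6 and, with no role given, the aligner HISAT2 (2.0.5), CASAVA, the counter featureCounts (1.5.0-p3) and the package DESeq2 (1.20.0); which tool made which value is not given in the sources used here. FPKM times gene length gave whole reads in 100% of genes within a tolerance of 0.001, so reads per gene were recovered. Poly(A) selection limits the data to polyadenylated RNA. All 12144 genes whose mean reached 1 FPKM entered a limma fit (version 3.58.1, run in R version 4.3.3) of log2(FPKM + 1), using a variance trend and genotype as the only factor, two-sided. The procedure was tried on simulated data with changes placed only in well-covered genes. That trial does not cover changes in genes with as few reads as most of this set. Fold changes on this scale understate the change of low genes, and folds without log2 are ratios of mean FPKM. Ratios within pairs were tested with exact two-sided permutation tests over 20 arrangements. Exons came from GENCODE M21, where all 187 genes were found and 185 had identical bounds. Tables were made in Python (3.11.15) using scipy 1.17.1, pandas 2.3.3 and numpy 2.4.6.

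The genes, the lists and the tests were chosen with earlier results of these data known. Genes named are up to 12 called genes in each direction with the largest changes (8 were called higher), genes with established symbols, the 6 most abundant, those at the threshold, and the partners of all these; Gm13054, E230013L22Rik, the remaining called genes and the remaining called partners were chosen after their values were seen. The result on 1 called gene and its partner is not reported here. Alternatives covered the pseudocount, the filter, the scaling, the variance model, voom on recovered reads, autosomal genes, the replicate block and each library left out.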

Additional observations from a re-analysis of the deposited data

How the results depend on the processing

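Calls rested on few libraries and on the number of genes tested. Leaving out 1 library at a time gave 2 to 9 higher and 10 to 30 lower genes (8 and 28 with all libraries), 11 to 34 antisense and 1 to 5 bidirectional promoter genes called (30 and 6), 5 to 21 partners called (24), 1 to 8 pairs called in the same direction (7) and Ythdc1 log2 fold changes of -0.60 to -0.50. Without a filter on low values 4 genes were higher and 15 lower, with 17 antisense and 2 bidirectional promoter genes, 10 partners and 3 pairs. With a mean of at least 5 FPKM, which left 29 of the genes and not Ythdc1, 3 were higher and 6 lower, with 8 antisense, 1 bidirectional promoter gene and 2 pairs. These smaller counts go with the genes left out. The 158 genes under 5 FPKM held 5 of the higher and 22 of the lower calls reported. Of the calls reported, 3 higher and 10 lower were in genes sharing no exon base with another gene, a restriction chosen after the data were seen. With the same sum of FPKM the log2 fold change of Ythdc1 was -0.50 (limma adjusted p = 0.0888). The other alternatives tried (pseudocounts of 0.1 and 0.01, scaling by protein-coding genes, 2 variance settings, voom, autosomal genes) left these counts within 1.5 times those reported.

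Deviations from the group means correlated at 0.139, 0.0597 and -0.00548 between same-numbered libraries of the 2 groups. Between libraries of unlike number the correlations ran from -0.231 to 0.141. With 3 libraries per group, these values cannot settle whether the numbers pair the libraries. With the replicate number as a block 4 genes were higher and 20 lower, with 2 bidirectional promoter genes, 13 partners and 4 pairs called, and Ythdc1 kept its log2 fold change of -0.54 without passing (adjusted p = 0.0542).

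Signs turned in few results, none of them called. The ratio of 2310001K24Rik to Fitm2 was -0.70 at a pseudocount of 0.1 (0.12 at 1), and that of 1700119I11Rik to Ckmt2 ranged from -0.0619 to 0.416 when 1 library was left out. Leaving out 1 library at a time also turned Tbx3os1 (-0.252 to 0.088), Gm29237 (-0.0650 to 0.140), Prox1os (-0.160 to 0.013) and Sp3os (-0.232 to 0.030). The cause of these differences was not tested. Depth limits the low genes most, since 82 of the 187 had fewer than 20 reads in their lowest library.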
